A study of Canis lupus familiaris with 26 samples.

Results

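The blue co-expression module is a set of genes whose levels rose and fell together across stroma of canine mammary tumours, and 100 of its members are described here in the stroma of adenomas (adenoma-associated stroma, AAS) and in normal stroma of the same dogs. The study built its modules by weighted co-expression analysis of the most variable genes of adenoma and carcinoma stroma together, which includes the samples analysed here. It lists 300 genes in blue, of which 132 could be paired with a gene identifier of the count table and 168 could not and are not analysed here. A further 18 were set aside by name, among them the collagens and the core fibroblast matrix genes, which left 114 candidates. The 100 members are those with a mean of at least 5 counts over the 24 samples used, out of 18466 genes in the table and 7763 at or above that mean. RCAN2 (mean 6.88 counts) and MAMDC2 (7.33) lie just inside this limit, and METTL24 (4.71) and IP6K3 and SLC4A4 (4.17 each) just outside it. The other candidates below it were CDH19, WIF1, IL1R2, NT5E, GDA, CTHRC1, CCBE1, ALDH1A1, SLC27A6, FRMD3 and SLC16A7.

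The samples came from 13 female pet dogs with spontaneous simple mammary adenoma, a benign epithelial tumour, without any treatment group. Each dog gave 1 AAS sample and 1 normal stroma sample, cut by laser-capture microdissection from the same archived formalin-fixed, paraffin-embedded tissue, with normal stroma taken beside unaltered mammary glands. The labels name the tumour stroma cancer-associated stroma, although every case is an adenoma. Dogs were 6 to 13 years old and the blocks 4 to 29 months old in the 12 pairs used. Pair 14 was excluded by the study for the low depth of its normal sample and took no part in making the module, so it is described separately.

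A stroma of this kind is a mixture of fibroblasts, vessels, nerve twigs and immune cells embedded in matrix. Fibroblasts of resting connective tissue are known to make a matrix rich in elastic microfibrils and small glycoproteins, to carry receptors for glucocorticoids and growth factors, and to switch on immediate-early genes within minutes of a stimulus. Lymphatic vessels and nerves run through the same tissue and bring markers of their own. The members were grouped by these roles into 9 lists, the largest being cytoskeleton, membrane, nerve and muscle genes (20 members), signalling genes (18) and matrix genes (17).

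Total counts of the 24 samples ranged from 419770 to 1614120. Levels are given as CPM, the counts of a gene scaled to a common library total after TMM normalization. Changes are given as the log2 fold change of AAS over normal stroma, with an approximate standard error (SE) after the ± sign. This SE, also used for slopes, was derived from the test and not estimated by the model. It is the absolute value divided by the square root of the F statistic of edgeR's quasi-likelihood test. The AAS samples of pairs 7, 10 and 15 stood apart. In the AAS sample of pair 7 a single gene took 84.9% of all counts, so that 3 counts there correspond to 24.6 CPM. Of the 100 members, 46, 66 and 64 were at 0 in the AAS samples of pairs 7, 10 and 15, against 38.9%, 40.8% and 46.2% of all genes tested in the same samples. Among the normal samples pairs 4 and 15 had the most members at 0, with 22 and 21. Results are therefore also given without pairs 7, 8, 10 and 15, whose AAS samples had the smallest totals.

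Most members were at lower levels in AAS. The fitted log2 fold change was below 0 for 96 of 100 members, where 49.4% of all genes tested were below 0, and the median was -1.14 over the members and 0.01 over all genes. Genes were called when the adjusted p of edgeR's quasi-likelihood test was below 0.05 and the log2 fold change lay beyond 1. This held for 13 members, all lower in AAS, among them PLPP3, FNDC1, PI16, F13A1, ISM1, CYP26B1, MATN4, FOSB, MMRN1, ZFP36, ZBTB16 and CD55. The background of calls lower in AAS was 1.15% of all genes tested. No member was called higher, by edgeR or by DESeq2, where the background was 0.824%, and 1 member with a positive fold change had an unadjusted p below 0.05. The module was formed on these samples and part of the symbols came from a list ordered by this same contrast, so these counts describe the members and carry no weight as evidence. In bulk stroma, fewer cells of a type and less RNA per cell cannot be told apart.

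Both samples of a pair came from 1 dog. With the pair as a block, 24 members were called, against a background of 1.62%, all lower in AAS, and none was called higher (background 0.734%), nor by DESeq2 with the block. They were the same 13 and ADGRD1, ANK2, CRISPLD2, DUSP1, FOS, LARP6, MAN1A1, OLFML1, OSR2, SLIT2 and XG. Of these added members, DESeq2 without the block also called ANK2, MAN1A1, OLFML1, OSR2 and SLIT2. The median over the members was then -1.56, and 96 members again had a fold change below 0 (background 51.2%). Without pairs 7, 8, 10 and 15 the median was -1.06 without the block and -1.29 with it, and 10 and 12 members were called, all lower (background 0.876% and 0.966%). Under filterByExpr, a stricter filter on low counts, 69 members were tested, 65 had a fold change below 0 (background 49.1%), and 7 were called, all lower (background 1.19% lower and 0.616% higher). These were PLPP3, FNDC1, PI16, F13A1, ISM1, FOSB and ZFP36. The plot of fold changes by role places the members side by side.

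**Figure D1:**
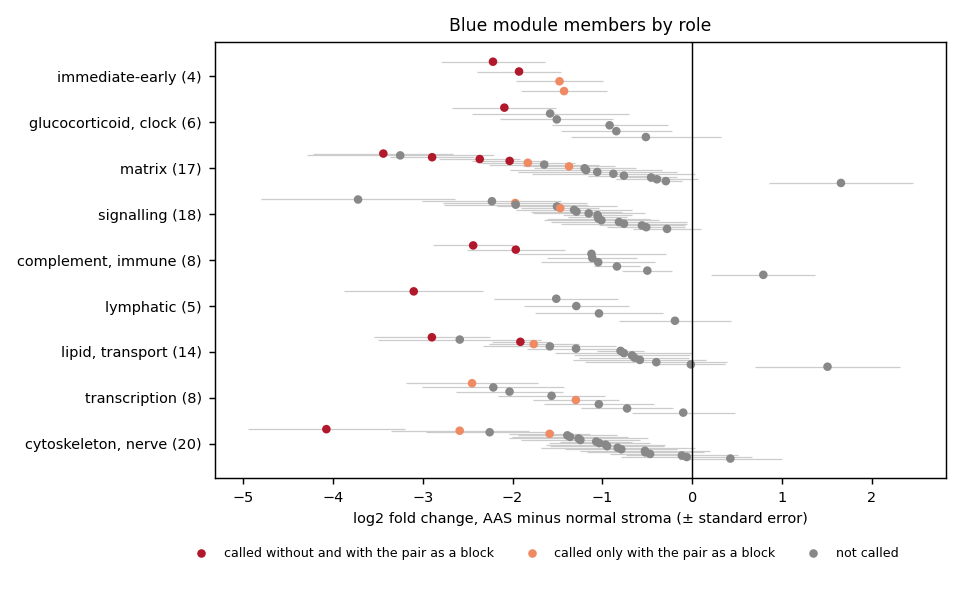
Log2 fold change of AAS over normal stroma for each of the 100 members (points) with its standard error (lines), by role, with the number of members in brackets. Red points were called with and without the pair as a block (13), orange ones only with it (11), and 4 points lie to the right of 0.

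The summed level of the members was lower in AAS in all 12 pairs. It ran from 3428 to 7604 CPM in normal stroma and from 1182 to 3989 CPM in AAS, so that the groups overlapped only through the normal sample of pair 7 and the AAS sample of pair 9. The ratio of AAS to normal was smallest in pair 10 (0.267) and largest in pair 6 (0.648). In pair 15 the AAS sum of 2474 CPM included 1019 CPM of a single member, MFAP5. Between 54 members (pair 6) and 92 members (pair 11) were lower in AAS within a pair, while 35.9% to 63.2% of all genes were. Taken gene by gene, 64 members were lower in at least 9 of the 12 pairs, against 11.3% of all genes, and 6 were lower in all 12: PLPP3, FNDC1, PI16, ISM1, CYP26B1 and ANK2 (background 0.708%). The map of levels by sample shows which samples carried these differences.

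**Figure D2:**
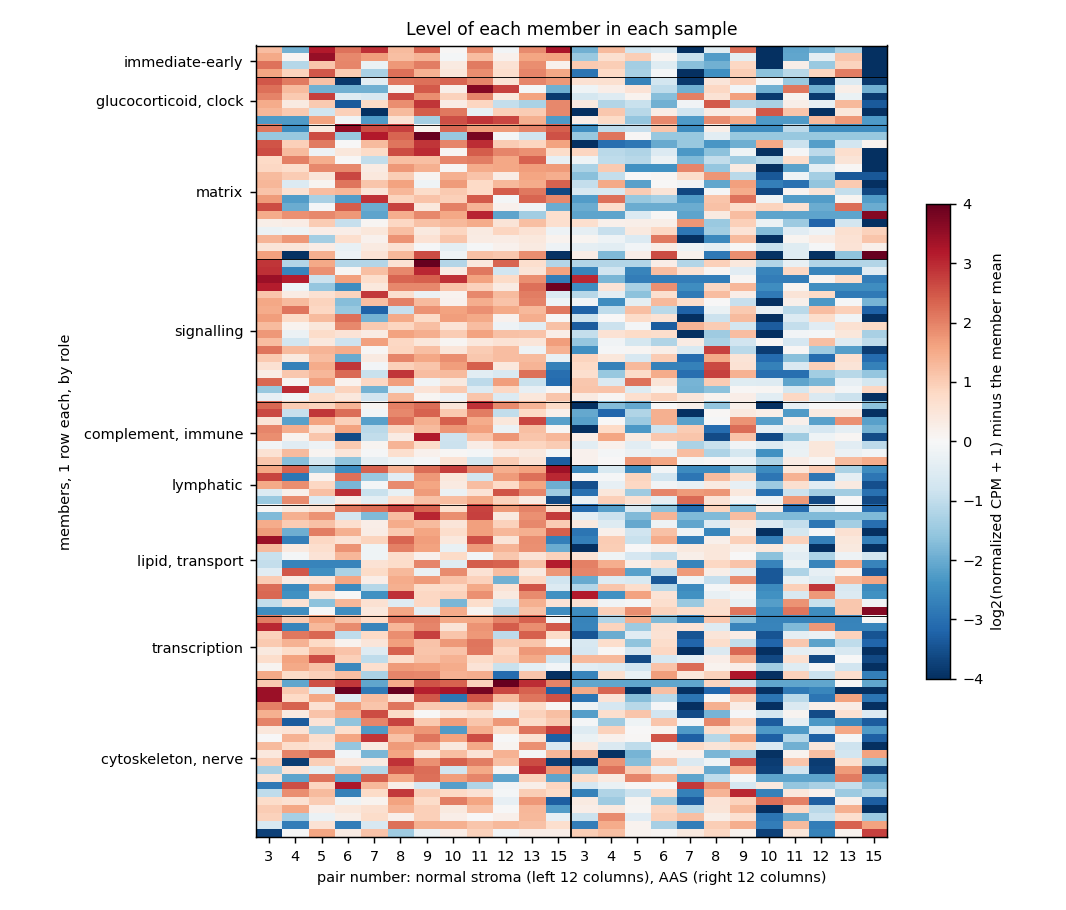
Level of each member (rows, by role) in each of the 24 samples (columns, pair number), as log2(normalized CPM + 1) minus the mean of that member, from blue (lower) to red (higher). The AAS columns of pairs 7, 10 and 15 hold the most values at 0, with 46, 66 and 64 members.

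Matrix genes had the highest summed level of any role, 1427 CPM on average in normal stroma and 745 CPM in AAS. Of the AAS value, MFAP5 held 103 CPM through 1019 CPM in the AAS sample of pair 15. Without that pair it averaged 19.9 CPM in AAS. Of the 17 members 4 were called, all lower, and 6 with the pair as a block. FNDC1, a fibronectin type III domain protein, had the smallest adjusted p of this role. It ranged over 72.7 to 558 CPM in normal stroma (median 251) and 2.35 to 207 CPM in AAS (median 17.4). It was lower in 12 of 12 pairs, and its log2 fold change was -2.90 ± 0.47 (SE), edgeR adjusted p = 1.35e-04. The highest AAS value belonged to pair 10, one of the samples that stood apart, and without the 4 pairs of small AAS totals the log2 fold change was -3.90. PI16, a peptidase inhibitor known as a marker of adventitial fibroblasts, ranged over 38.3 to 358 CPM in normal stroma (median 133) and 0 to 81.4 CPM in AAS (median 20.8). It was also lower in 12 of 12 pairs, with a log2 fold change of -2.37 ± 0.45 (SE), edgeR adjusted p = 0.00100. ISM1, a secreted angiogenesis inhibitor, reached 14.9 to 159 CPM in normal stroma (median 78.0) and 0 to 49.8 CPM in AAS (median 14.0), with a log2 fold change of -2.03 ± 0.42 (SE), edgeR adjusted p = 0.00314. For both genes the groups overlapped in range although every pair pointed the same way.

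MATN4, a matrilin of the filamentous matrix, was near the limit of detection in AAS. It ranged over 0 to 63.7 CPM in normal stroma (median 22.0) and 0 to 11.1 CPM in AAS (median 0), with 7 AAS samples at 0, and its log2 fold change was -3.44 ± 0.78 (SE), edgeR adjusted p = 0.00743. Without the 4 pairs of small AAS totals it was not called (edgeR adjusted p = 0.124). OLFML1 and CRISPLD2, both secreted glycoproteins, were called by edgeR in the 12 pairs with the pair as a block and not without it. Other fits without the block called OLFML1, among them DESeq2 and edgeR without the 4 pairs of small AAS totals. Without a filter on low counts edgeR called both. OLFML1 had a log2 fold change of -1.83 ± 0.53 without the block and -2.56 ± 0.60 with it (edgeR adjusted p = 0.0106, and 7.57e-05 to 0.161 over the alternatives). CRISPLD2 had -1.37 ± 0.51 without the block and -2.20 ± 0.59 with it (edgeR adjusted p = 0.0285, and 0.00102 to 0.849 over the alternatives). In both, 10 of 12 pairs were lower in AAS and the AAS samples with high values overlapped the normal range.

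Several abundant matrix members were not called. HMCN1, hemicentin 1, a very large basement membrane protein, ranged over 191 to 390.4 CPM in normal stroma (median 299) and 137 to 373 CPM in AAS (median 227), with a log2 fold change of -0.29 ± 0.18 (SE), edgeR adjusted p = 0.70. SVEP1, a large cell adhesion protein, ranged over 109 to 297 CPM in normal stroma (median 166) and 16.4 to 247 CPM in AAS (median 106), with -0.46 ± 0.29 (SE), edgeR adjusted p = 0.697. LTBP4, which binds latent TGF-beta and helps to assemble elastic fibres, ranged over 40.2 to 215 CPM in normal stroma (median 129.9) and 1.78 to 263 CPM in AAS (median 76.1), with -0.76 ± 0.40 (SE), edgeR adjusted p = 0.558. The 2 groups overlapped for all of them. LTBP4 was called lower by edgeR with the block and RNA fragment length (DV200) as a covariate. ELN, elastin itself, was lower in 6 and higher in 6 of 12 pairs (-0.39 ± 0.46, and 0.03 without the 4 pairs of small AAS totals). CDSN, corneodesmosin, a protein of the outer epidermis, had the second largest fold change of the role (-3.25 ± 1.04 (SE), edgeR adjusted p = 0.108) and was at 0 in 9 AAS samples and 4 normal samples. By edgeR CDSN was called lower without a filter on low counts, without pair 4, and with the block over all 13 pairs.

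MFAP5, a glycoprotein of elastic microfibrils, was the one matrix member with a positive fold change. It ranged over 0 to 94.3 CPM in normal stroma (median 32.9) and 0 to 1019 CPM in AAS (median 13.3), and the AAS sample of pair 15 alone held the 1019 CPM (573 counts). The next highest AAS value was 93.3 CPM. It was lower in AAS in 9 of 12 pairs, and its log2 fold change was 1.66 ± 0.80 (SE) over 12 pairs, -0.78 without pair 15 and -1.15 with the pair as a block. None of these was called. The direction of MFAP5 thus rested on 1 sample. Its gene also overlaps RIMKLB in the gene annotation.

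All 4 immediate-early members were lower in AAS with the pair as a block, and FOSB and ZFP36 without it too. Immediate-early genes are transcribed within minutes of a stimulus, without new protein. FOSB, a subunit of the AP-1 transcription factor, ranged over 43.5 to 523 CPM in normal stroma (median 127) and 0 to 99.8 CPM in AAS (median 29.7), with a log2 fold change of -1.93 ± 0.47 (SE), edgeR adjusted p = 0.0152. ZFP36, which binds AU-rich messages and speeds their decay, ranged over 4.04 to 181 CPM in normal stroma (median 68.8) and 0 to 86.4 CPM in AAS (median 5.51), with -2.22 ± 0.58 (SE), edgeR adjusted p = 0.0283. Both were lower in 11 of 12 pairs. ZFP36 was called in only 5 of the 12 fits that left out 1 pair each, and FOSB and ZFP36 were not called without the 4 pairs of small AAS totals (edgeR adjusted p = 0.0626 and 0.317).

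FOS, another subunit of AP-1, had the highest level of any member in normal stroma. It ranged over 64.5 to 904 CPM in normal stroma (median 447) and 1.78 to 669 CPM in AAS (median 69.1), so that both groups spanned a wide and shared range. The log2 fold change of FOS was -1.43 ± 0.48 (SE), edgeR adjusted p = 0.142, without the block and -2.21 ± 0.45 with it (edgeR adjusted p = 0.00208, and 0.00208 to 0.406 over the alternatives). DUSP1, a phosphatase that ends MAP kinase signalling, ranged over 12.1 to 130.1 CPM in normal stroma (median 79.0) and 0 to 58.7 CPM in AAS (median 15.0). For DUSP1 the log2 fold change was -1.48 ± 0.48 (SE), edgeR adjusted p = 0.117, without the block and -1.98 ± 0.47 with it (edgeR adjusted p = 0.0106, and 2.10e-04 to 0.279 over the alternatives). Of 15 other immediate-early genes tested, 13 had a fold change below 0 and 1 was called, NFKBIZ, an inhibitor protein of NF-kappa-B (-1.90 ± 0.39, SE, edgeR adjusted p = 0.00243), and with the block also PPP1R15A, a stress-induced phosphatase subunit. EGR1, the most abundant of these 15, was at 360 ± 155 CPM in normal stroma and 270.3 ± 175 CPM in AAS (SD, n = 12 each) and was not called (log2 fold change -0.40 ± 0.29). CCN2, a matricellular growth factor, went the other way in value (0.28 ± 0.31) and was not called either.

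Of the 6 members tied to glucocorticoid response and the clock, ZBTB16 was called. ZBTB16, a zinc finger repressor strongly induced by glucocorticoids in many tissues, ranged over 0 to 80.5 CPM in normal stroma (median 54.9) and 0 to 27.3 CPM in AAS (median 8.30), and its log2 fold change was -2.09 ± 0.58 (SE), edgeR adjusted p = 0.0455. It kept this call in 1 of the 12 fits that left out a pair, and lost it without the 4 pairs of small AAS totals (edgeR adjusted p = 0.216). FKBP5, a co-chaperone of the glucocorticoid receptor, ranged over 0 to 85.7 CPM in normal stroma (median 32.1) and 0 to 89.0 CPM in AAS (median 18.5), with -0.84 ± 0.62 (SE), edgeR adjusted p = 0.771. PER2, a core repressor of the clock, ranged over 0 to 96.6 CPM in normal stroma (median 35.6) and 0 to 57.5 CPM in AAS (median 9.95), with -1.51 ± 0.63 (SE), edgeR adjusted p = 0.334. RORA, a nuclear receptor that drives clock genes, had -0.92 ± 0.65, LPIN1, a phosphatidate phosphatase, -1.58 ± 0.87, and PDK4, a kinase that turns off pyruvate dehydrogenase, -0.52 ± 0.83. PDK4 had no stable direction, since 4 pairs were lower and 6 higher in AAS and the fold change was 0.14 ± 1.06 (SE) with the block. None of these 5 was called by edgeR in the 12 pairs, with the block or without it. PER2 was called lower by DESeq2 with the block. By edgeR with the block it was called lower without pair 7 and without the 4 pairs of small AAS totals. Of 7 other glucocorticoid-responsive and clock genes tested, 5 had a fold change below 0 and none was called, while 2 had an unadjusted p below 0.05 and DESeq2 called none. With the pair as a block PER1, another clock repressor, and NR3C1, the glucocorticoid receptor itself, were called lower. PER1 was at 109 ± 44.5 CPM in normal stroma and 53.8 ± 31.5 CPM in AAS, and NR3C1 at 125 ± 37.6 CPM and 59.4 ± 36.4 CPM (SD, n = 12 each), both lower in 11 of 12 pairs.

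Among the 14 lipid, retinoid, nucleotide and transport genes, PLPP3 and CYP26B1 were called. PLPP3, a phosphatase of lipid signals such as lysophosphatidic acid, ranged over 129 to 415 CPM in normal stroma (median 233) and 12.4 to 142 CPM in AAS (median 64.0). Only the highest AAS values reached the lowest normal ones, every pair was lower in AAS, and the log2 fold change was -1.91 ± 0.31 (SE), edgeR adjusted p = 1.43e-04. CYP26B1, which breaks down retinoic acid, ranged over 7.72 to 54.2 CPM in normal stroma (median 29.6) and 0 to 14.6 CPM in AAS (median 1.61), with 4 AAS samples at 0 and a log2 fold change of -2.90 ± 0.65 (SE), edgeR adjusted p = 0.00659. MAN1A1, a mannosidase of glycoprotein trimming, had -1.76 ± 0.50 without the block and -2.15 ± 0.61 with it (edgeR adjusted p = 0.0446, and 0.00226 to 0.215 over the alternatives).

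The other abundant members of this role differed less. ABCA9, a lipid transporter, ranged over 59.5 to 285 CPM in normal stroma (median 163) and 35.0 to 163 CPM in AAS (median 90.0), with -0.80 ± 0.26 (SE), edgeR adjusted p = 0.122. APOB, a lipoprotein component, had the smallest fold change of all members, -0.01 ± 0.38, at 61.2 ± 38.8 CPM in normal stroma and 59.3 ± 43.4 CPM in AAS (SD, n = 12 each). MGLL, which releases fatty acids from monoglycerides, had a log2 fold change of -2.59 ± 0.91 (SE), edgeR adjusted p = 0.178, with 8 AAS samples at 0. With the block MGLL was called lower by DESeq2, and by edgeR with RNA fragment length (DV200) as a covariate. ACSM3, a medium-chain acyl-CoA synthetase, had a positive fold change (1.51 ± 0.81 (SE), edgeR adjusted p = 0.576), from 5.29 ± 5.78 CPM in normal stroma and 15.4 ± 19.5 CPM in AAS (SD, n = 12 each). Its highest value, 71.1 CPM, was again that of the AAS sample of pair 15, and without this pair the fold change was 0.84. Of 5 other lipid handling genes tested, ABCA1, which exports cholesterol, was called higher in AAS (1.20 ± 0.28, SE, edgeR adjusted p = 0.0121), while none was called lower by edgeR or DESeq2 or had a negative fold change with an unadjusted p below 0.05.

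Among the 8 members of complement, coagulation and immune cells, F13A1 and CD55 were called. F13A1, the clot-stabilizing factor XIII subunit that tissue macrophages carry, ranged over 38.0 to 267 CPM in normal stroma (median 92.2) and 0 to 41.1 CPM in AAS (median 19.6). It was lower in 11 of 12 pairs, with a log2 fold change of -2.44 ± 0.45 (SE), edgeR adjusted p = 6.19e-04. CD55, which shields cells from complement, ranged over 7.75 to 123 CPM in normal stroma (median 49.3) and 0 to 44.5 CPM in AAS (median 11.7), with -1.96 ± 0.55 (SE), edgeR adjusted p = 0.0481, and kept this call in 4 of the 12 fits that left out a pair. Without the 4 pairs of small AAS totals CD55 was not called (edgeR adjusted p = 0.113). FGL2, a secreted fibrinogen-like immune modulator and the most abundant member of this role, ranged over 53.8 to 254 CPM in normal stroma (median 145) and 41.1 to 135 CPM in AAS (median 74.4). Its log2 fold change of -0.84 ± 0.25 (SE), edgeR adjusted p = 0.0813, did not pass the test. ALOX15, an enzyme that oxygenates fatty acids, had -0.50 ± 0.28, and GPNMB, a glycoprotein of macrophages, -1.11 ± 0.50. With the block GPNMB was called lower by DESeq2, and by edgeR with all 13 pairs or without pair 7. ACP5, an acid phosphatase of macrophages and osteoclasts, had higher values in AAS for 8 of 12 pairs (0.79 ± 0.58) and was not called.

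Of 11 genes listed for macrophages and dendritic cells, 4 could be tested, and none of these 4 passed the test. None was called by edgeR, 3 had a negative fold change, 1 had an unadjusted p below 0.05, and DESeq2 called none. Their summed level was 326 to 873 CPM in normal stroma and 270.0 to 1051 CPM in AAS. MRC1, a mannose receptor of tissue macrophages, was at 182 ± 59.7 CPM and 128 ± 45.8 CPM, and AIF1, a calcium-binding protein of macrophages, at 362 ± 147 CPM and 426 ± 203 CPM (normal stroma and AAS, SD, n = 12 each). Their part in the F13A1 result was not tested. Of 11 lymphocyte and plasma cell genes listed, 2 were tested. IGHM, the heavy chain of immunoglobulin M, was called higher in AAS (2.46 ± 0.62, SE, edgeR adjusted p = 0.0203).

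MMRN1, multimerin 1, a marker of lymphatic endothelium, was the called member among 5 of lymphatic and sinusoidal endothelium. It ranged over 0 to 58.3 CPM in normal stroma (median 18.5) and 0 to 10.5 CPM in AAS (median 0.505), with 6 AAS samples at 0 and a log2 fold change of -3.10 ± 0.77 (SE), edgeR adjusted p = 0.0183. It lost this call without pair 9, 10 or 15 alone, with all 13 pairs, and without the 4 pairs of small AAS totals (edgeR adjusted p = 0.408). PROX1, the transcription factor that defines lymphatic endothelium, ranged over 1.97 to 59.2 CPM in normal stroma (median 9.36) and 0 to 29.97 CPM in AAS (median 2.74), with -1.04 ± 0.71 (SE), edgeR adjusted p = 0.749. FLT4, the receptor for lymphatic growth factors, ranged over 0 to 44.5 CPM in normal stroma (median 16.4) and 0 to 57.5 CPM in AAS (median 11.3), with -0.19 ± 0.62 (SE), edgeR adjusted p = 0.981. Of the 3 lymphatic markers tested, all of them members, MMRN1 alone was called, and their summed level was 23.2 to 80.9 CPM in normal stroma and 0 to 82.1 CPM in AAS. CLEC4G, a lectin of sinusoidal endothelium, had -1.29 ± 0.58, and PKHD1L1, a large membrane protein, -1.51 ± 0.69. Of 15 blood endothelial genes listed, KDR and TEK were tested. They summed to 8.89 to 84.9 CPM in normal stroma and 0 to 59.1 CPM in AAS. Neither was called by edgeR or DESeq2, nor had an unadjusted p below 0.05.

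None of the 18 signalling members was called without the block, although 10 had a negative fold change with an unadjusted p below 0.05 and DESeq2 called 2. With the block SLIT2 and ADGRD1 were called. SLIT2, a guidance ligand for Robo receptors, ranged over 10.1 to 144 CPM in normal stroma (median 83.0) and 0 to 86.5 CPM in AAS (median 29.3). It had a log2 fold change of -1.47 ± 0.43 without the block and -1.84 ± 0.45 with it (edgeR adjusted p = 0.0146, and 0.00119 to 0.189 over the alternatives). ADGRD1, an adhesion receptor coupled to G proteins, was at 0 in 7 AAS samples, with -1.97 ± 0.80 without the block and -3.51 ± 0.85 with it (edgeR adjusted p = 0.0127, and 1.74e-04 to 0.653 over the alternatives). TGFBR3, a co-receptor for TGF-beta, ranged over 42.5 to 168 CPM in normal stroma (median 106) and 0 to 117 CPM in AAS (median 46.8), with -1.05 ± 0.38 (SE), edgeR adjusted p = 0.210. With the block TGFBR3 was called lower by DESeq2, and by edgeR with all 13 pairs or with RNA fragment length (DV200) as a covariate. DACT2, an inhibitor within Wnt and TGF-beta signalling, ranged over 32.4 to 189.6 CPM in normal stroma (median 81.1) and 19.6 to 136 CPM in AAS (median 35.9), with -1.05 ± 0.33 (SE), edgeR adjusted p = 0.0931. Without a filter on low counts, and without pair 12, edgeR called DACT2 lower. FGF10, a growth factor that mesenchyme sends to epithelium, ranged over 2.96 to 162 CPM in normal stroma (median 39.1) and 6.76 to 150.0 CPM in AAS (median 22.5), with -0.56 ± 0.48 (SE), edgeR adjusted p = 0.835, and its groups overlapped almost fully.

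Members with low counts had the largest and least certain values of this role. RCAN2, an inhibitor of calcineurin, had the largest fold change (-3.72 ± 1.08 (SE), edgeR adjusted p = 0.0627), but its highest normal value was 96.0 CPM against a median of 2.17 CPM, and 8 AAS samples were at 0. By edgeR RCAN2 was called lower without the 4 pairs of small AAS totals and without pair 8 alone. It was also called with RNA fragment length (DV200) as a covariate and without a filter on low counts. ACKR3, a scavenging chemokine receptor, had -2.23 ± 0.77 (SE), edgeR adjusted p = 0.173. DESeq2 with the block called ACKR3 lower, and so did edgeR without a filter on low counts. Among 14 other genes of Wnt, Slit, semaphorin and FGF signalling, none was called lower by edgeR or DESeq2, 1 had a negative fold change with an unadjusted p below 0.05, and 2 were called higher in AAS. These were SFRP1, a secreted Wnt antagonist (2.81 ± 0.52, SE, edgeR adjusted p = 6.49e-04), and DKK2, another Wnt antagonist (2.94 ± 0.72, edgeR adjusted p = 0.0167). SLIT3, a relative of SLIT2, was at 119 ± 47.5 CPM in normal stroma and 88.4 ± 61.3 CPM in AAS (SD, n = 12 each) and was not called.

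The 8 transcription and RNA binding members had a median log2 fold change of -1.43, and none was called by edgeR in the fit of the 12 pairs without the block. By unadjusted p, 5 were below 0.05, a count without the share of all genes beside it that carries no weight. DESeq2 called 2, where it called 108 of 7763 genes lower. OSR2, a zinc finger factor of mesenchyme, was at 18.8 ± 7.81 CPM in normal stroma and 3.13 ± 5.48 CPM in AAS (SD, n = 12 each). It had a log2 fold change of -2.45 ± 0.74 without the block and -3.72 ± 0.95 with it (edgeR adjusted p = 0.0200, and 8.13e-05 to 0.180 over the alternatives). LARP6, which binds collagen messages, ranged over 16.5 to 127 CPM in normal stroma (median 53.7) and 0 to 121 CPM in AAS (median 15.4). Its log2 fold change was -1.30 ± 0.48 without the block and -1.92 ± 0.51 with it (edgeR adjusted p = 0.0268, and 9.27e-04 to 0.671 over the alternatives). OSR1, the relative of OSR2, ranged over 0 to 117 CPM in normal stroma (median 66.8) and 0 to 284 CPM in AAS (median 43.8) and had a fold change near 0 (-0.10 ± 0.57). The highest OSR1 value, in the AAS sample of pair 9, was above the highest normal value. FOXO1, a factor restrained by insulin signalling, had -0.73 ± 0.51, CREB5, a leucine zipper factor, -2.03 ± 0.59, PRDM8, a histone methyltransferase family member, -2.21 ± 0.79, and ESR1, the oestrogen receptor, -1.57 ± 0.59, lower in 11 of 12 pairs. By edgeR none of these was called in the 12 pairs, with the block or without it. DESeq2 called CREB5 lower without the block and with it, and PRDM8 and ESR1 with it. Without a filter on low counts edgeR called CREB5 and PRDM8, and without pair 6 CREB5.

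Of the 20 cytoskeleton, membrane, nerve and muscle members 1 was called, and XG and ANK2 as well with the block. XG, a cell surface blood group protein, ranged over 0.987 to 627 CPM in normal stroma (median 142) and 0 to 113 CPM in AAS (median 1.41). Its log2 fold change was -2.59 ± 0.77 without the block and -4.06 ± 0.71 with it (edgeR adjusted p = 2.78e-04, and 1.32e-04 to 0.637 over the alternatives). ANK2, an ankyrin that anchors membrane proteins, was lower in 12 of 12 pairs, with -1.59 ± 0.45 without the block and -1.92 ± 0.46 with it (edgeR adjusted p = 0.0120, and 1.80e-04 to 0.145 over the alternatives). PPL, a plakin of cell junctions, had -1.07 ± 0.40 (SE), edgeR adjusted p = 0.241, RYR3, a calcium channel, -0.47 ± 0.44 (SE), edgeR adjusted p = 0.857, and SH3GL2, an endophilin of vesicle uptake, 0.43 ± 0.57. The positive value of SH3GL2 also rested on the AAS sample of pair 15 (87.1 CPM), since it was -0.05 without that pair.

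**Figure D3:**
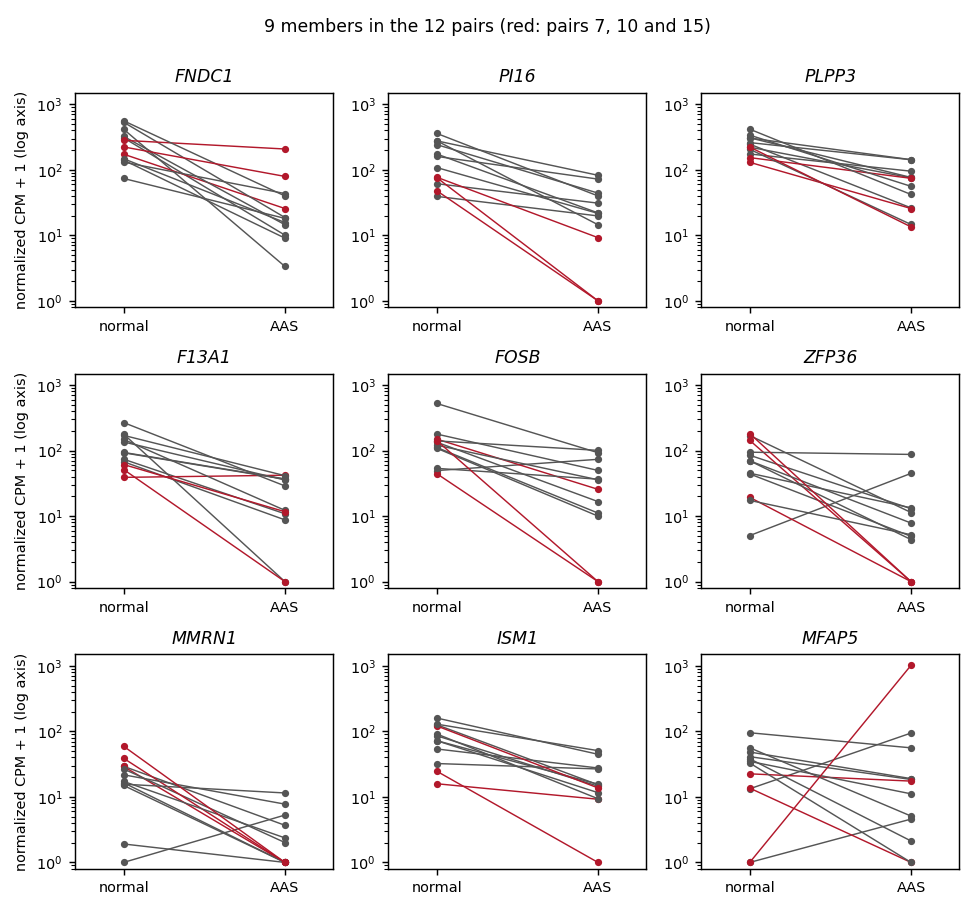
Normalized CPM + 1 (log axis) of 9 members in normal stroma and AAS, with a line for each of the 12 pairs and pairs 7, 10 and 15 in red. FNDC1, PI16 and PLPP3 were lower in AAS in 12 of 12 pairs, while MFAP5 was lower in 9 and reached 1019 CPM in the AAS sample of pair 15.

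Markers of the cells that the captured areas could hold were counted beside the members. A listed gene needed an identifier and enough counts, and identifiers came from tables partly ordered by this contrast. Tested were 6 of 9 fibroblast, 3 of 12 luminal epithelial, 3 of 9 pericyte and smooth muscle, 2 of 8 epidermal and 1 of 8 mast cell genes. The untested genes of each list are not described by these results. Of 6 fibroblast genes tested, all had a fold change below 0, and COL1A2 and DCN were called lower (log2 fold change -1.35 ± 0.37 and -1.97 ± 0.44), with COL1A1 added by the block. Their summed level was 1219 to 19568 CPM in normal stroma and 452 to 6753 CPM in AAS. COL3A1 (-1.01 ± 0.45), PDGFRA (-0.47 ± 0.31) and THY1 (-0.42 ± 0.25) were not called, with the block or without it. DCN and the collagen genes are left out of the members by name. The fibroblast list had the direction of most matrix members. The module was formed by co-expression in these samples, so this shared direction carries no weight as evidence. The part of fibroblasts in the results of the matrix members was not tested. Of 3 luminal epithelial genes none was called by edgeR or DESeq2, nor had an unadjusted p below 0.05, and they summed to 91.1 to 227 CPM in normal stroma and 88.9 to 285 CPM in AAS. CDH1, the epithelial cadherin, was present in both groups, at 103 ± 34.8 CPM and 147 ± 58.4 CPM (SD, n = 12 each). Pericyte and smooth muscle genes (3) summed to 40.4 to 191 CPM and 49.3 to 362 CPM, with no call by either tool and no unadjusted p below 0.05. The 2 epidermal genes summed to 0 to 153 CPM and 1.05 to 74.4 CPM, without a call by edgeR, while DESeq2 called 1 of them lower and 1 had an unadjusted p below 0.05. KIT, the only mast cell gene tested, reached at most 14.9 CPM in normal stroma and 40.5 CPM in AAS and was not called by either tool, with an unadjusted p above 0.05. Of the adipocyte, skeletal muscle and basal epithelial lists no gene could be tested.

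Pair 14 gave values that neither the module nor the choice of members had used. Its normal sample held 83727 counts in all, so that 3 counts correspond to 19.7 CPM, while its AAS sample held 824086 (3.00 CPM). Of the 100 members 57 were lower in AAS, 41 were higher and 2 were at 0 in both samples. Over all genes tested 32.0% were lower and 53.1% higher in this pair. In the shallow normal sample 39.2% of all genes tested were at 0, but only 16 of the 100 members. A gene at 0 there cannot be lower in AAS, so the shares of members and of all genes are not directly comparable. More than 2-fold lower in AAS were 42 members (19.8% of all genes), and more than 2-fold higher 24 members (36.4%). The summed level of the members was 5367 CPM in normal stroma and 4306 CPM in AAS. With 1 pair there is no test.

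Single members varied in this pair. FNDC1 had 262 CPM in normal stroma and 19.0 CPM in AAS, CYP26B1 52.4 CPM in normal stroma and 1.002 CPM in AAS and ZFP36 236 CPM in normal stroma and 45.1 CPM in AAS, the direction of the fit over the other 12 pairs. F13A1 had 32.8 CPM in normal stroma and 82.1 CPM in AAS, and ISM1 26.2 CPM in normal stroma and 62.1 CPM in AAS, the opposite direction, although the normal values rested on 5 and 4 counts. FOS and FOSB were close in value, with 229 CPM in normal stroma and 240.4 CPM in AAS for FOS and 249 CPM in normal stroma and 253 CPM in AAS for FOSB. XG was the most discordant, with 6.55 CPM in normal stroma and 478 CPM in AAS from 1 and 477 counts, within the range of normal stroma and above that of AAS in the other pairs. By role the members lower in AAS were 14 of 20 among cytoskeleton, membrane, nerve and muscle genes, 10 of 17 among matrix genes, 10 of 18 among signalling genes, 9 of 14 among lipid and transport genes, 5 of 8 among immune genes, 3 of 5 among lymphatic genes, 2 of 4 among immediate-early genes, 2 of 6 among glucocorticoid and clock genes and 2 of 8 among transcription genes.

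**Figure D4:**
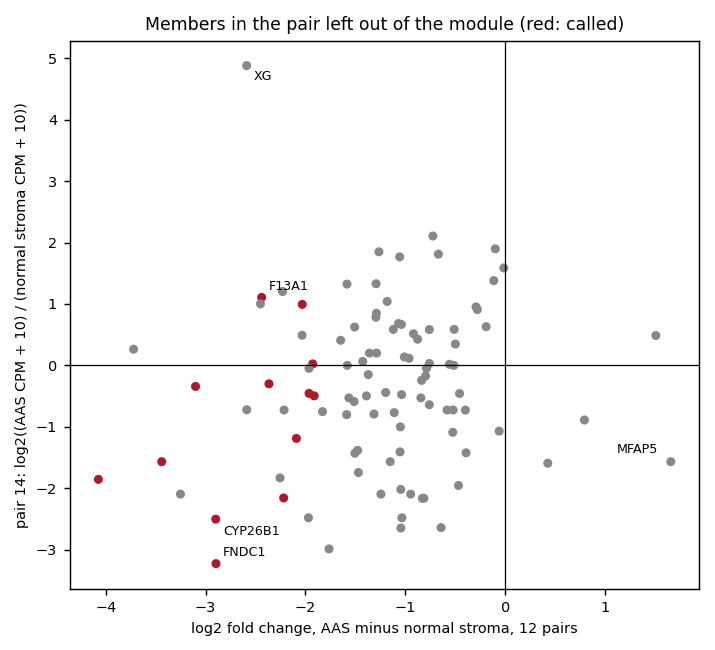
Log2 fold change over the 12 pairs (x axis) against the log2 ratio of AAS to normal stroma in pair 14, after adding 10 CPM to both (y axis), for each of the 100 members, with the 13 called ones in red. XG lies far above 0 on the y axis (6.55 and 478 CPM), while FNDC1 lies lowest (262 and 19.0 CPM).

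The age of the block and of the dog were used as measures that did not choose the members. The members were grouped because their levels moved together in samples that include these, so their slopes are not independent. Counts of members set beside the share of all genes are therefore a description only. Slopes were fitted within each group of 12 samples, and the count of genes called rests on the adjusted p alone. No member was called in any of the 4 fits by edgeR or DESeq2. On block age in normal stroma 13 members had an unadjusted p below 0.05 by edgeR and 16 by DESeq2, where the edgeR background was 6.79% unadjusted and 0.0258% called. On block age in AAS these were 5 and 1 members (4.12% and 0.0258%), on dog age in normal stroma 4 and 4 (3.04% and 0%), and on dog age in AAS 6 and 3 (2.68% and 0.0386%). The DESeq2 background was larger. By DESeq2, 753 of 7763 genes had an unadjusted p below 0.05 on block age in normal stroma and 375 in AAS. On dog age these were 314 genes in normal stroma and 254 in AAS. On block age in normal stroma 76 members had a negative slope, against 54.9% of all genes, with a median of -0.03 log2 units per month against -0.01 over all genes. On dog age in normal stroma 59 members had a negative slope (46.4% of all genes), on dog age in AAS 74 (63.1%) and on block age in AAS 62 (57.3%). PI16 had the smallest p on block age in normal stroma, with a slope of -0.09 ± 0.03 log2 units per month (SE, edgeR adjusted p = 0.412). Each pair shares 1 block, so the 2 groups had the same block ages. Whether block age acts alike in both tissues was not tested. On dog age in AAS, CDSN had the smallest p (-1.61 ± 0.40 log2 units per year, SE, edgeR adjusted p = 0.391).

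Some values could include reads of other genes. Of the members, 97 were found by symbol in a dog gene annotation of another build, and 11 of these overlap another protein-coding gene there. Among the called members this concerns MATN4, which overlaps RBPJL, and, with the block, OSR2, which overlaps STK3, and ANK2. FGL2, ECM2, PODN, PAMR1, PEPD, MAMDC2 and ACSM3 are the others beside MFAP5. The library kit keeps strand, but whether strand was used in counting is not given in the sources used here, so reads shared by overlapping genes cannot be told apart. ABCA8 and ABCA9, CLEC4G and FCER2, and ADAMTSL1 and SH3GL2 lie next to each other in that annotation. None of these 6 was called by edgeR, with the block or without it, and DESeq2 with the block called ADAMTSL1.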

How the data were processed

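RNAseq of laser-captured AAS and normal stroma from 13 canine simple mammary adenomas was analysed, 26 samples in all. The authors quantified transcripts with kallisto 0.44.0, using Ensembl transcripts of CanFam3.1 and sequence-based bias correction, with gene sums from tximport 1.8.0. The deposited values are the authors' estimated counts, not normalized, and all values were whole numbers, so rounding changed none. RNA input per sample was 4 ng by the labels and 10 ng by the methods. Groups and pair numbers came from the sample titles. As in the methods, pair 14 was left out, which gave 12 pairs.

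Genes whose counts averaged 5 or more (7763) entered TMM normalization and a quasi-likelihood test (edgeR 4.0.16, R 4.3.3), with Benjamini-Hochberg adjustment over all genes tested. A gene was called at an adjusted p below 0.05 and a log2 fold change beyond 1. No term for the pair was used, because the methods name none. Samples of a pair came from the same dog, so the pair was also fitted as a block. Deviations from the group means correlated at 0.0807 on average within pairs and at -0.00508 between pairs, and 3 of 12 pairs exceeded 0.1. The biological coefficient of variation was 88.0%, and 78.6% with the block. Total counts of 419770 to 1614120 set a floor of 3 counts, which covers counting error only. On simulated counts of this comparison (7230 genes) edgeR recovered 32 of 94 genes changed by a log2 value of 1.5 and 69 of 88 changed by 3, with 0 false calls. With the block edgeR recovered 24 and 59 with 0 false calls, and DESeq2 (1.42.0) recovered 45 and 77 with 13 false calls. The simulated samples had no effect of the pair and used the dispersions of the fit without the block. They therefore cannot show what the block gains or loses in paired data.

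Members are genes of the blue module of the study, with symbols from its first supplementary tables, which pair 3302 of 18466 identifiers. Values of 1 called member are not reported here. The members, the gene lists and the rule for named genes were chosen with earlier results of these data known. Besides the members, 15 of 36 listed immediate-early genes and 7 of 26 glucocorticoid and clock genes could be tested. For Wnt, Slit, semaphorin and FGF signalling this was 14 of 46, and for lipid handling 5 of 33. The rule names the members called with and without the block, the 3 most abundant and the 2 largest fold changes of each role, and every positive fold change. Members called only with the block, 11 in number, and those lower in all pairs were named in addition, and 10 further members after their values were seen. The alternatives were the block, DESeq2 with and without it, RLE normalization, filterByExpr, no filter, all 13 pairs, each pair left out, pairs 7, 8, 10 and 15 left out, DV200 as a covariate, and the 10 most counted genes left out. A further 5 combinations with the block were chosen after seeing the data. Slopes on block age and dog age were fitted in the same way within each group. A dog gene table of the assembly UU_Cfam_GSD_1.0, another build, was used only for neighbouring genes.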

Additional observations from a re-analysis of the deposited data

How the results depend on the processing

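The 13 members called became 24 with the pair as a block, 21 with DESeq2, 37 with DESeq2 and the block, 7 of 69 tested with filterByExpr and 29 with no filter on low counts, and 10 to 16 when each pair was left out in turn. Over all genes the calls lower in AAS were 89 of 7763, and under these alternatives 126, 108 and 189 of 7763, 54 of 4544, 432 of 18441, and 70 to 91 of 7763. In the 5 combinations chosen after seeing the data, the block gave 27 members with all 13 pairs (119 genes lower), 25 without pair 7 (121), 21 with DV200, a measure of RNA fragment length (113), 12 without pairs 7, 8, 10 and 15 (75), and 15 of 69 tested with filterByExpr (86 of 4544), where CRISPLD2, LARP6 and MAN1A1 were tested and lost their calls. RLE gave 11 members (75 of 7763 genes lower), all 13 pairs 13 (83), DV200 without the block 13 (79), and pairs 7, 8, 10 and 15 left out 10 (68). Of the 13 called members, 9 were called in all 12 fits that left out 1 pair, while CD55, ZBTB16, ZFP36 and MMRN1 were not. filterByExpr removed 4 of the 13, among them CYP26B1, MATN4 and MMRN1. Without a filter, 1690 genes were called in place of 153, the share of calls lower in AAS was 25.6% in place of 58.2%, and the median of all genes moved to 0.22. The share lower was 68.9% with the block. The cause was not tested.

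Over the 27 alternatives the log2 fold changes of 15 of 100 members changed sign, none of them called where they did. Of these, 7 have values in the report and follow. PDK4 gave 0.14 with the block and 0.63 with DESeq2 and the block, and ELN 0.0285 without the 4 pairs. OSR1 gave 0.0130 with all 13 pairs and 0.14 without the 4 pairs, and -0.64 to 0.0738 when each pair was left out. APOB gave 0.00926 with DESeq2, 0.0425 with DESeq2 and the block, 0.0116 with RLE, 0.0030 with filterByExpr, 0.0298 with no filter, 0.0117 with all 13 pairs, 0.0824 without the 4 pairs, 0.00665 with DV200, and -0.24 to 0.0952 when each pair was left out. MFAP5 gave -1.15 with the block, -0.70 with DESeq2, -1.29 with DESeq2 and the block, -0.63 without the 4 pairs, and -0.78 (without pair 15) to 1.97 when each pair was left out. SH3GL2 gave -0.0501 (without pair 15) to 0.68 when each pair was left out, and FLT4 0.00899 with DV200.

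In the age fits no member was called under any alternative. Genes called on block age in normal stroma went from 2 to 16 with DESeq2, on block age in AAS from 2 to 0 with DESeq2 and with filterByExpr, on dog age in normal stroma from 0 to 2 with DESeq2, and on dog age in AAS from 3 to 0 with DESeq2 and with filterByExpr. A search of promoters for motifs was planned and not run, because no promoter sequences were used here. Genes under about 20 CPM rest on few counts in the AAS samples of pairs 7, 10 and 15, where most of the zeros lie.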
